A study of Mus musculus with 13 samples.

Results

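The 43 genes described here carry signals from cytokine and growth factor receptors into blood cells. They were chosen by name as receptor tyrosine kinases, cytokine receptor chains, Janus kinases, STAT factors, their inhibitors and phosphatases, and genes of the RAS pathway, with ubiquitin ligases and antigen receptor kinases. Every SNV, INDEL and copy number row that names 1 of them was taken from all 7 libraries. The deposited tables name 16740 genes in all.

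A cytokine that binds its receptor brings Janus kinases (JAK) together, and these phosphorylate STAT factors that then enter the nucleus and switch on genes of survival and growth. The same receptors, and receptor tyrosine kinases such as Kit, load RAS proteins with GTP through exchange factors such as Sos1, and RAS then activates the RAF and MEK kinases. SOCS proteins, phosphatases, RAS GTPase-activating proteins such as Nf1 and ubiquitin ligases such as Cbl switch the signal off. Activating changes in the kinases and RAS proteins, and losses of the inhibitors, are well known in human acute leukaemia.

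Genomic DNA came from GFP+ bone marrow cells of C57BL/6 mice with a cell stage of 8 to 10 weeks, with 1 library for each of 7 populations, and the leukaemias carried N-Myc, a Myc family transcription factor, from a retrovirus. B-ALL cells were sorted as B220+, T-ALL cells as CD3+, AML cells as Mac1+Gr1+ and AUL cells as negative for all these markers. The mixed phenotype leukaemia gave an M-MPAL fraction (Mac1/Gr1+, B220- and CD3/4/8-) and a T-MPAL fraction (CD3/4/8+, Mac1/Gr1- and B220-), and the empty control was sorted as GFP+ alone. No matched normal DNA is named. Pooling of animals, their sex and whether both MPAL fractions came from 1 animal are not given either. DNA cannot check the sorted cell types against marker expression, but rearranged antigen receptor loci can leave losses. T-ALL had 1 copy over 444.4 kb of the T cell receptor locus Trb and over 21 kb of Trg, and T-MPAL had 0 copies over 161 kb of Tra and Trd. The other 3 leukaemias with a complete table and the empty control had no loss at these loci, and none of the 6 complete tables had one at the antibody loci, B-ALL included. With 1 library per group no difference has a replicate check and no test between groups was made.

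The SNV tables held 38946 to 47499 rows in the leukaemias and 36461 rows in the empty control. The INDEL tables held 92317 to 132423 rows in the leukaemias and 100277 rows in the empty control. Depth at the member INDEL calls had a median of 15 to 17 reads in the leukaemias and of 16.5 reads in the empty control. The tables list called variants alone, so the depth at member positions without a call is unknown.

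No coding exon of any of the 43 genes held an SNV or INDEL call in any library, the empty control included. The 86 member SNV calls were 27 distinct SNVs, all intronic, in 12 of the 43 genes. The 652 member INDEL calls were 397 distinct alleles at 303 positions in 36 genes. Of these alleles, 392 were intronic, 2 lay at a splice site, 1 in a 5′ UTR and 2 in 3′ UTRs, by the deposited annotation. Over all genes named in the tables, 1.8% had an exonic SNV call and 0.597% an exonic INDEL call in at least 1 library. The 7 genes without any call were Il2rg, Il3ra, Crlf2, Epor, Socs1, Socs3 and Hras, with spans of 1.73 to 9.58 kb. None of the 47 promoter windows that RefSeq (GRCm38.p6) gives for 39 of the genes, from 250 bases before to 50 bases after a gene's start, held a call of any library. Each window has only 300 bases, and the share of windows with a call over all genes was not computed. Nothing particular to these promoters can be read from the absence of calls.

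Nearly all INDEL alleles lay in annotated repeats. Repeats annotated in the deposited tables held 394 of the 397 alleles (99.2%), against 97.2% of all INDEL alleles inside genes, and 350 lay in simple repeats. A change of 2 bases made up 76.1% of the alleles, with 230 deletions and 72 insertions, and a change of 4 bases another 18.6%. Shown are the starts, at most 30 bases long, of runs whose private or pair-shared alleles had a high quality score or lay outside annotated repeats, from the deposited files (mm10, plus strand). Capitals mark the bases that were deleted from the reference run in Jak3, Stat3, Sos1 and Kit, and the bases that were inserted in Csf3r and Nf1.
Jak3 (chr8:71682599-71682628, M-MPAL and T-MPAL): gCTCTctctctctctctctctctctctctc
Stat3 (chr11:100932060-100932089, AUL): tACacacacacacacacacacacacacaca
Sos1 (chr17:80416062-80416091, T-ALL): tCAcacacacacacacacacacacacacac
Kit (chr5:75630114-75630133, T-ALL): tTGtgtgtgtgtgtgtgtgt
Csf3r (chr4:126032693-126032714, T-ALL): aTTATTTATttatttatttatttatttatt
Nf1 (chr11:79376242-79376267, M-MPAL): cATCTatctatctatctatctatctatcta
The Kit and Csf3r runs are tandem repeats of 2 and 4 bases that the deposited annotation does not mark as repeats.

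A call counted as private to a library when 10 or more reads covered it there and none of the other 6 libraries listed that position and allele, whatever the depth. AUL had 3 private SNVs in the 43 genes (95% exact Poisson interval 0.619 to 8.77), AML 1 and M-MPAL 1 (0.0253 to 5.57 each). B-ALL, T-ALL and T-MPAL had 0 (up to 3.69 each), and the empty control had 1. All 7 intervals overlap, and they cover counting error only, not calling errors or differences between animals. Without molecular identifiers several reads can stem from 1 molecule, which the intervals of read shares below do not cover. The share of all named genes with a private SNV was 9.28% for AUL, 5.02% for T-ALL, 3.79% for M-MPAL, 3.32% for AML, 3.24% for B-ALL and 2.81% for T-MPAL, against 2.89% for the empty control. AUL, with 3 of 43 genes, thus lay near its own background.

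Sos1, the exchange factor that loads RAS with GTP, held the private SNV with the most alternative reads. G80441533A on chromosome 17 (reference base, mm10 position on the plus strand, alternative base) had 18 alternative reads of 32 in AUL, a share of 56.2% (exact 95% interval 37.7 to 73.6), with a quality score of 222 and outside repeats. In Stat5a, a STAT factor downstream of cytokine receptors, G100875882A on chromosome 11 had 6 of 18 reads in AUL (33.3%, 13.3 to 59.0) and a quality score of 113. These 2 calls alone met stricter criteria: a quality score of 100 or more, 4 or more alternative reads, an alternative share no lower than 0.2 and a place outside segmental duplications. By these criteria the share of all named genes with a private SNV was 6.51% for AUL, 2.21% for M-MPAL, 1.68% for T-ALL, 1.1% for T-MPAL, 0.466% for AML and 0.394% for B-ALL, against 0.424% for the empty control. AUL had 2 member genes and the other 6 libraries 0.

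The other private SNVs rested on 4 or 5 alternative reads each. Ptprc, the phosphatase CD45 of blood cells, had G138088887A in AUL with 5 of 13 reads and C138154572A in M-MPAL with 4 of 11 reads. Stat5b, the close relative of Stat5a, had T100813391A in AML with 4 of 13 reads. Rasa1, a RAS GTPase-activating protein, had C85261674T in the empty control with 4 of 18 reads (22.2%, 6.41 to 47.6). The shares of all these calls had intervals that overlap.

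**Figure D1:**
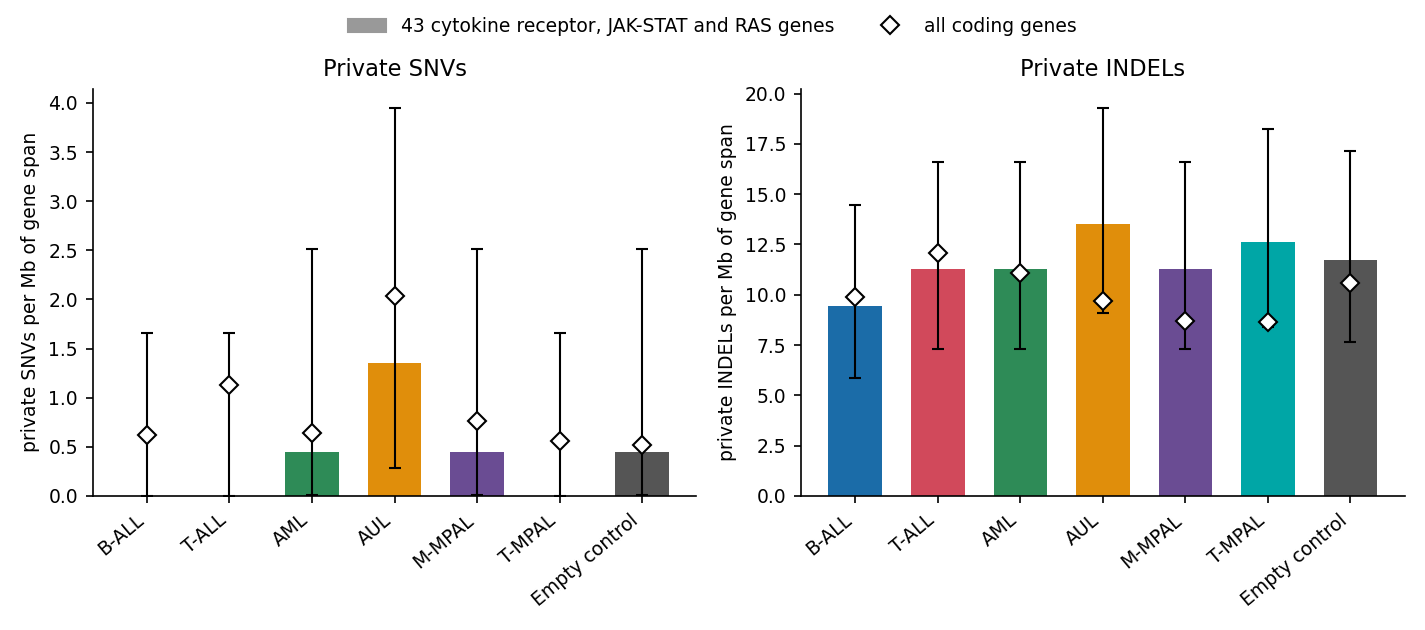
Private SNVs (left) and private INDELs (right) per Mb of gene span in each library, with bars for the 43 genes, exact 95% Poisson intervals as error bars and diamonds for all coding genes. The interval of each bar covers the diamond of its library in both panels.

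Per Mb of gene span (2.22 Mb for the 43 genes, 1030 Mb for all coding genes), AUL had 1.35 private member SNVs (0.279 to 3.95) and the empty control 0.45 (0.0114 to 2.51). Over all coding genes the rates were 2.03 per Mb in AUL and 0.521 per Mb in the empty control. AUL therefore had the highest rate of the 7 libraries both in the 43 genes and over all coding genes.

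A pair of member SNVs was called in exactly 2 libraries. Sos1 held C80452981T, in a SINE repeat of an intron and not listed in dbSNP, in both MPAL fractions. It had 35 of 35 reads in M-MPAL (interval 90.0 to 100%) and 31 of 31 in T-MPAL (88.8 to 100%). No other library had a call there. The other 3 SNVs that only the MPAL fractions shared within 2.5 Mb of Sos1 had shares of 25.0% to 59.4%. The Sos1 call was thus the only 1 of the 4 that had no reference read in either fraction. In T-MPAL the Sos1 site lies in a row called at 3 copies, described below, and the other 3 sites lie outside that row.

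The other pair-shared SNV lay in Ptpn2, a phosphatase that acts on Janus kinases. T67683685C on chromosome 18 had 12 of 26 reads in B-ALL (46.2%, 26.6 to 66.6) and 13 of 34 in AML (38.2%, 22.2 to 56.4). No other library had a call there, and the call lay outside repeats and is not in dbSNP. These libraries also shared both copy number gains of member genes described below.

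The 8 member SNVs called in all 7 libraries lay in Ptprc, Syk, Cblb (2 sites), Ptpn2, Blnk, Ptpn11 and Braf, and all are listed in dbSNP. At the Syk, Blnk and Ptpn11 sites and at the second Cblb site, every read carried the alternative base in every library, the empty control included. The Ptprc site, in a simple repeat, had shares of 33.3% to 54.5% in the leukaemias and 63.6% in the empty control, with 9 to 19 reads. The Braf site had shares of 75.0% to 100% in the leukaemias and 90.0% in the empty control, with 10 to 22 reads. Intervals overlapped between all libraries at these sites.

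**Figure D2:**
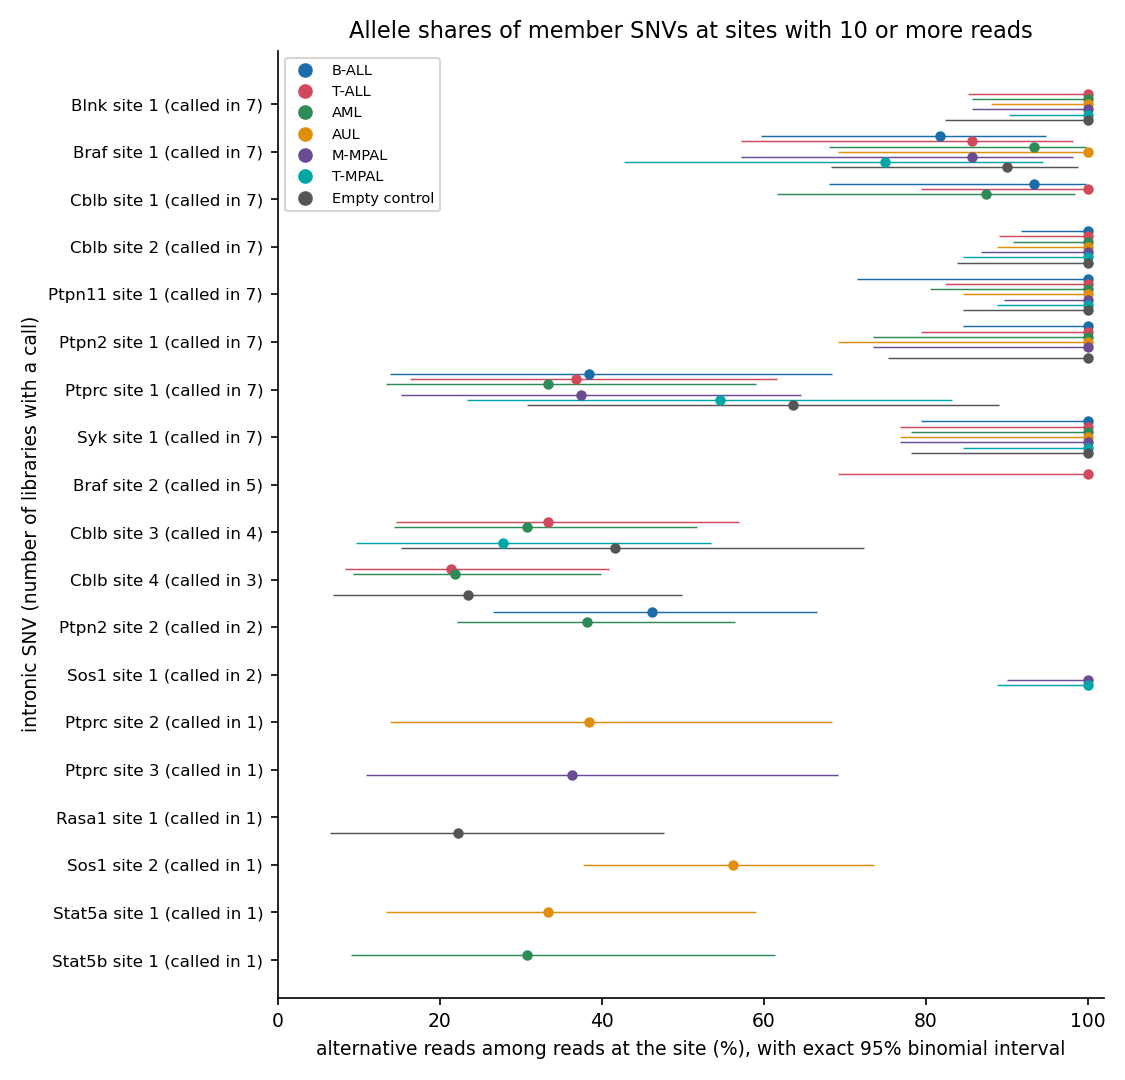
Share of alternative reads (%) with exact 95% binomial intervals for each intronic member SNV with 10 or more reads, coloured by library. Sites called in 7 libraries sit mostly at 100%, the Sos1 site shared by the MPAL fractions sits at 100% in both, and the private sites lie between 22.2% and 56.2%.

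Private INDELs were more numerous and similar between libraries. AUL had 30 in the 43 genes (95% exact Poisson interval 20.2 to 42.8), T-MPAL 28, AML, M-MPAL and T-ALL 25 each and B-ALL 21 (13.0 to 32.1), against 26 in the empty control (16.98 to 38.1). The control lay within the range of the leukaemias and all 7 intervals overlap. They touched 21 genes for T-MPAL, 17 for AUL, 16 for T-ALL, 14 each for AML and B-ALL and 12 for M-MPAL, against 16 for the empty control. The share of all named genes with a private INDEL was 33% for T-ALL, 31.4% for AML, 29.7% for B-ALL, 29.1% for AUL, 27.8% for T-MPAL and 27.7% for M-MPAL, against 31.6% for the empty control.

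The reads behind them were few. The median share of alternative reads in private member INDELs was 25.8% to 30.8% in the leukaemias and 26.5% in the empty control. Median quality scores were 36.0 to 44.4 in the leukaemias and 30.2 in the empty control. Of the 180 private INDELs, 95 had no INDEL of another library within 10 bases. The others lay beside a call of a different library.

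The stricter criteria left 4 private INDELs for AUL, in 3 genes, 2 each for T-ALL and T-MPAL, 1 each for M-MPAL and B-ALL, and 0 for AML and for the empty control. The matching shares of all named genes were 5.09% for T-ALL, 4.15% for M-MPAL, 3.95% for AUL, 3.45% for AML, 3.13% for T-MPAL and 2.78% for B-ALL, against 3.52% for the empty control. At this rate 43 genes give a count too low to rank the libraries, and the exact interval of 0 reaches 3.69. The AUL calls in Syk and Blnk come from rows with more than 1 allele, whose read counts cover all alternative alleles together. For these the criteria on reads were not applied to each allele alone.

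**Figure D3:**
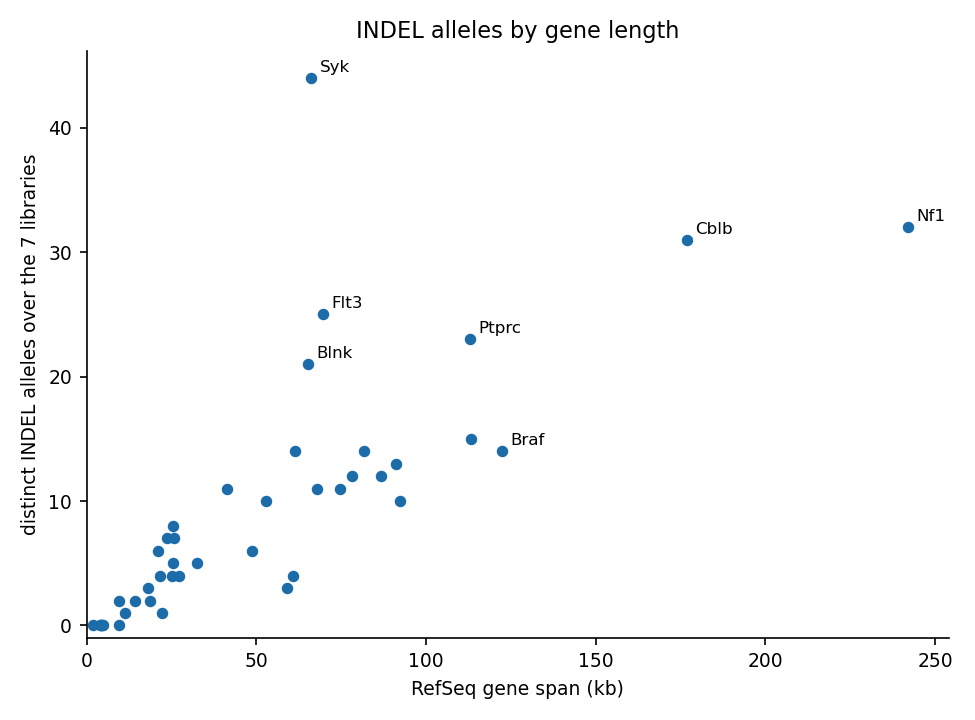
Distinct INDEL alleles over the 7 libraries (vertical) against the RefSeq span in kb (horizontal), 1 point per gene. Longer genes tended to hold more alleles, and Syk, with 44 alleles in 66.2 kb, lies above genes of its length.

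Gene length went along with these counts. The 10 longest genes, from 78.3 to 242 kb, made up 53.9% of the span and held 44.3% of the INDEL alleles. Nf1, a RAS GTPase-activating protein and the longest gene, had 32 alleles and 15 private INDELs. Cblb, a ubiquitin ligase of T cells, had 31 alleles and 16 private INDELs. Syk, the kinase next to the B cell receptor, had 44 alleles, or 6.8 per 10 kb counted with its SNV, against a median of 1.59 per 10 kb over the 43 genes, and 16 private INDELs.

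Among the receptor tyrosine kinases, Flt3, the receptor of early progenitors whose internal duplications are common in human AML, had 25 INDEL alleles in 40 calls, all intronic. The longest insertion called in any member was 8 bases. No search for longer internal duplications was made, so their presence or absence is not known from these calls. Kit, the stem cell factor receptor, had 14 alleles, all intronic, and the T-ALL deletion printed above was seen in 6 of 30 reads (20.0%, 7.71 to 38.6) with a quality score of 36.1.

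Csf1r, the receptor of macrophage colony-stimulating factor, held the only protein-altering calls by annotation, 5 calls of a splice site. At chr18:61124327 a 2-base repeat unit was inserted or deleted, and no library had the insertion and the deletion. The insertion had 3 of 10 reads in T-ALL, 5 of 12 in AUL and 12 of 26 in the empty control. The deletion had 7 of 13 reads in AML and 8 of 19 in M-MPAL. Each allele was called in several libraries, so none was private, and with quality scores of at most 77 none met the stricter criteria. Over all named genes, 1.08% held a protein-altering call in any library, against 1 of the 43 members. Private protein-altering calls were found in 0 members of every library. Over all named genes their share was 0.114% for AUL, 0.0956% for T-MPAL, 0.0896% for M-MPAL, 0.0836% for T-ALL, 0.0657% for B-ALL and 0.0478% for AML, against 0.108% for the empty control.

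Of the 9 cytokine receptor chains, 5 had a call, with 21 INDEL alleles in all and no SNV. Il7r, the receptor chain for interleukin 7 that lymphocyte progenitors need, had a 2-base deletion in its 5′ UTR in B-ALL (9 of 18 reads), T-ALL (8 of 15), T-MPAL (8 of 30) and the empty control (4 of 20). Csf2ra, the GM-CSF receptor alpha chain, had a 2-base deletion in its 3′ UTR in B-ALL (3 of 13), AML (9 of 21), T-MPAL (5 of 17) and the empty control (8 of 25). The common beta chain Csf2rb had 4 alleles and Il2rb 5, all intronic. Both UTR alleles were thus found in the control as well. Csf3r, the G-CSF receptor, had the private 8-base insertion of T-ALL in 4 of 12 reads (33.3%, 9.92 to 65.1) with a quality score of 110.

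The 4 Janus kinases had 35 INDEL alleles and no SNV. Jak3, which pairs with the common gamma chain, had at the CT repeat printed above a deletion of 4 bases in M-MPAL (10 of 17 reads, 58.8%, 32.9 to 81.6) and in T-MPAL (8 of 12, 66.7%, 34.9 to 90.1), with quality scores of 169 and 140. At the same position a deletion of 2 bases was called in B-ALL (6 of 10 reads), AML (2 of 8) and the empty control (5 of 12). Among INDEL alleles called in exactly 2 libraries with at least 10 reads in each, the Jak3 deletion was the only 1 that met the stricter criteria in both. Jak1 had 15 alleles, Jak2 14 and Tyk2 4, all intronic.

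Of the STAT factors, Stat3 had the AUL deletion of the AC run in 12 of 23 reads (52.2%, 30.6 to 73.2) with a quality score of 151. Other lengths were called at the same run, an insertion of 2 bases in T-ALL (8 of 23 reads) and a deletion of 4 bases in the empty control (3 of 14). The inhibitors of the JAK-STAT path held 1 INDEL allele in all, a private intronic one of AML in Sh2b3, an adaptor that dampens Jak2. Stat5a had 7 alleles and Stat5b 12. The 5 phosphatases held 39 INDEL alleles, and Ptprc had strict private calls in B-ALL (6 of 24 reads) and T-MPAL (8 of 25). Ptpn1, Ptpn2, Ptpn6 and Ptpn11 had 3 to 6 alleles each, and the ubiquitin ligase Cbl 13.

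In the RAS genes, Nras had an intronic insertion of 3 bases in T-MPAL with 11 of 16 reads (68.8%, 41.3 to 89.0) and a quality score of 120. Another insertion of 3 bases nearby, at chr3:103062743, was called in T-ALL (6 of 6 reads), M-MPAL (8 of 8), T-MPAL (12 of 12) and the empty control (9 of 11), so T-MPAL was not alone in carrying an insertion near this place. Hras had no call. Sos1 had the T-ALL deletion of the CA run in 10 of 28 reads (35.7%, 18.6 to 55.9). Nf1 had the M-MPAL insertion in 8 of 14 reads (57.1%, 28.9 to 82.3), with 0 alternative reads on the forward strand and 8 on the reverse strand. Calls with all reads on 1 strand are less certain. Outside annotated repeats, Nf1 also had a 2-base deletion in AUL in 3 of 23 reads with a quality score of 24.3. That deletion lay in a run of AC units, 14 bases long, which the deposited annotation does not mark as a repeat. Rasa2, another RAS GTPase-activating protein, had a private 3′ UTR deletion of 2 bases in AUL with 5 of 20 reads. Braf, Map2k1 and Map2k2, the RAF and MEK kinases, had 27 INDEL alleles, all intronic.

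The antigen receptor kinases and their adaptor held 90 INDEL alleles, more than any other role. In AUL, Syk had a strict deletion of 4 bases (9 of 10 reads) and Blnk, the B cell adaptor next to Syk, had a row with insertions of 2 and of 4 bases (12 of 14 reads). Both rows list more than 1 allele, and their read counts cover all alternative alleles together. Lck, the T cell receptor kinase, had an insertion of 4 bases that all reads carried in all 7 libraries. The kinases Btk and Zap70 had 11 and 6 alleles.

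Copy number rows held 12 of the 43 genes, all in 4 of the 5 leukaemias with a complete table. B-ALL had 2 in gains and 3 in losses, AML 2 in gains, M-MPAL 4 in gains and 2 in losses, and T-MPAL 4 in gains. T-ALL and the empty control had none, and AML and T-MPAL had none in losses. The share of all named genes in gains was 6.37% for T-MPAL, 5.82% for M-MPAL, 4.77% for AML, 4.61% for B-ALL and 0.341% for T-ALL, against 0.46% for the empty control. In losses it was 6.12% for M-MPAL, 4.73% for B-ALL, 0.0657% for T-ALL, 0.0597% for T-MPAL and 0.00597% for AML, against 0.0478% for the empty control. With so few members per row type, nothing particular to these genes can be read from the counts. The AUL table broke off in chromosome 2 after 17 whole lines, none with a member, and AUL was left out.

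**Figure D4:**
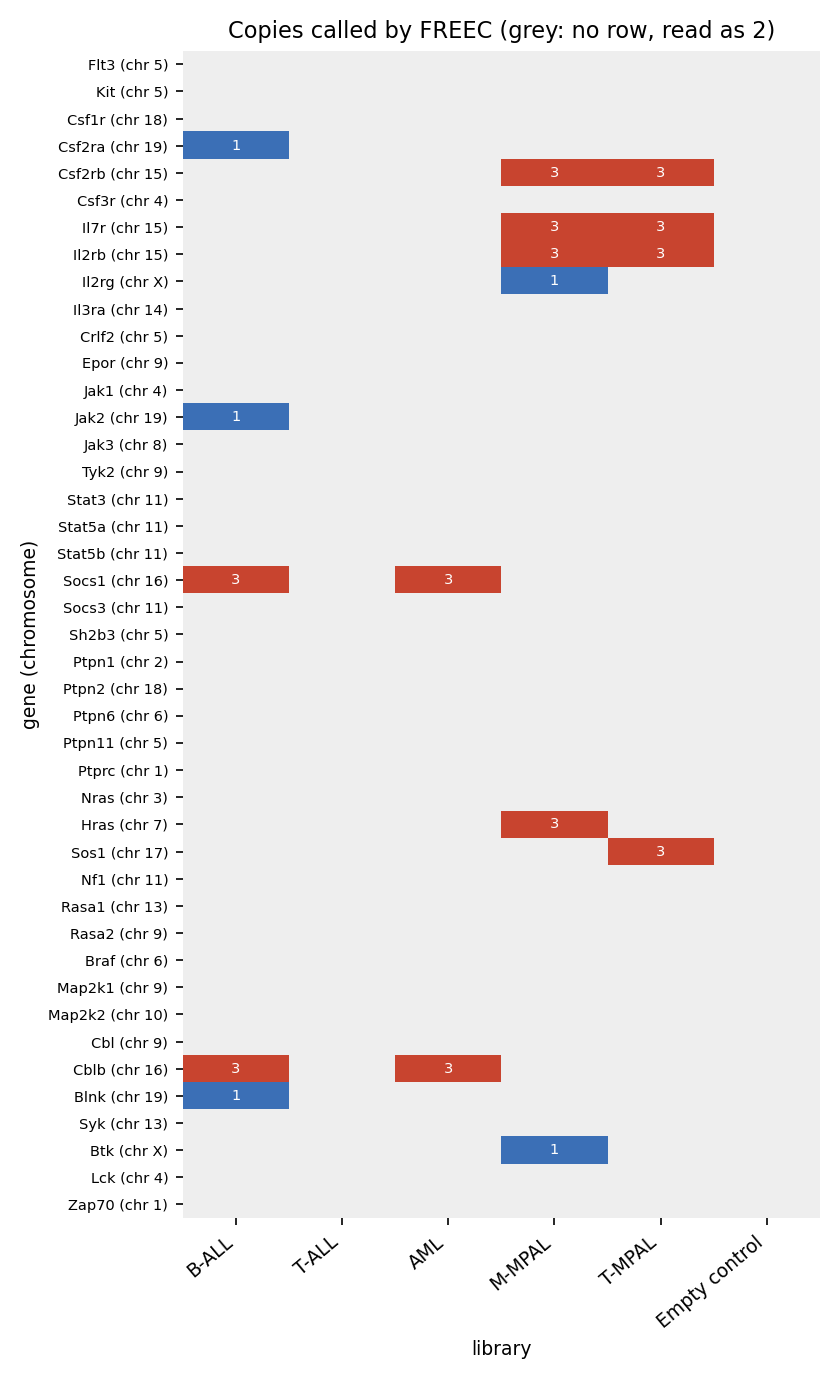
Copies given by FREEC for each of the 43 genes (rows, with chromosome) in 6 libraries (columns), with blue for 1 copy, red for 3 and grey for genes without a row, read as 2. Gains and losses lie on chromosomes 7, 15, 16, 17, 19 and X, and the columns of T-ALL and the empty control have none.

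B-ALL and AML shared 3 copies of Socs1, the inhibitor of Janus kinases, and of Cblb. The Socs1 row ran over chr16:10084001-10974000 in B-ALL and chr16:10542001-10974000 in AML. The Cblb row ran over chr16:51073001-52586000 in B-ALL and chr16:50496001-53074000 in AML. Gains covered 69.0 Mb of chromosome 16 in B-ALL and 94.4 Mb in AML, against 0.036 Mb in the empty control, so both genes lay in changes of much of the chromosome.

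Read depth at called variants gave a second readout of these gains. It comes from the same sequenced reads as the copy number rows, so it is not an independent check. At the second Cblb site the depth was 43 reads in B-ALL and 38 in AML, against 32 in T-ALL, 31 in AUL, 26 and 22 in the M-MPAL and T-MPAL fractions and 21 in the empty control. At a 1-base deletion in Cblb that all libraries carry, the depth was 37 in B-ALL and 44 in AML, against 30 in T-ALL, 22 in AUL, 29 and 23 in the M-MPAL and T-MPAL fractions and 17 in the empty control. B-ALL and AML were the deepest libraries at both. At the first Cblb site, in a simple repeat, B-ALL had 15 reads and AML 16, against 16 in T-ALL, so the groups overlapped there. Over both Cblb SNVs, depth scaled to each library's median was 1.67 times higher in B-ALL and AML than in the other 5 libraries (median of the 2 sites).

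Over 75 SNVs of chromosome 16 called in all 7 libraries, the median depth, scaled to 1 over chromosomes 1 to 14, was 1.35 in B-ALL and 1.42 in AML. It was 0.917 to 1.04 in the other 4 leukaemias and 1.02 in the empty control. The 2 usable sites in the AML Cblb row had a median of 2.65 in AML, 2 in B-ALL and 1.5 to 1.92 in the other leukaemias, and 1.96 in the empty control. These sites did not set B-ALL apart.

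B-ALL had 1 copy of Jak2, of Blnk and of Csf2ra on chromosome 19, where losses covered 57.7 Mb in B-ALL and 0 Mb in the empty control. The Jak2 row ran over chr19:23358001-34581000, the Blnk row over chr19:37842001-53044000 and the Csf2ra row over chr19:61202001-61267000. At the Blnk SNV of all libraries, B-ALL had 9 reads, against 36 in T-MPAL, 29 in AUL, 24 each in AML and M-MPAL, 23 in T-ALL and 19 in the empty control. B-ALL was the lowest of the 7, at 0.345 times the mean of the other 6 after scaling. At the 13 usable sites in the Jak2 row, the median scaled depth was 0.696 in B-ALL, 0.792 to 1 in the other leukaemias and 0.933 in the empty control. At the 8 sites in the Blnk row it was 0.543 in B-ALL, 0.78 to 0.87 in the other leukaemias and 0.8 in the empty control.

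Both MPAL fractions had 3 copies of Il7r, Csf2rb and Il2rb on chromosome 15. Csf2rb is the beta chain shared by the receptors of GM-CSF, interleukin 3 and interleukin 5, and Il2rb is a chain of the interleukin 2 and interleukin 15 receptors. The Il7r row ran over chr15:9326001-10156000 in M-MPAL and chr15:9326001-11422000 in T-MPAL, and the row of Csf2rb and Il2rb over chr15:76972001-79473000 in M-MPAL and chr15:78280001-79487000 in T-MPAL. In M-MPAL, gains covered 99.6 Mb of chromosome 15, and 101 Mb in T-MPAL, against 0.232 Mb in the empty control. Over 59 sites the median scaled depth of chromosome 15 was 1.43 in T-MPAL, 1.39 in M-MPAL and 0.844 in the empty control. B-ALL, T-ALL and AML, which have no gain of chromosome 15 members, had 0.917 to 1.04. This measure used sites with a scaled depth of 0.5 to 2, a limit that was added after the values without it had been seen. Without it, over 106 sites, chromosome 15 had 1.98 in T-MPAL, 1.79 in M-MPAL and 1.35 to 1.38 in B-ALL, T-ALL and AML, against 0.913 in the empty control. The empty control was the lowest library on chromosome 15 both ways. The single usable site in the T-MPAL row of Il7r had 1.96 in T-MPAL, 1.87 in M-MPAL, 0.87 to 1.08 in the other leukaemias and 1.29 in the empty control.

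The MPAL fractions differed in 4 members. M-MPAL had 1 copy of Il2rg, the common gamma chain of lymphoid cytokine receptors, and of Btk, the B cell kinase, both on chromosome X, where losses covered 149 Mb in M-MPAL and 0.685 Mb in the empty control. The Il2rg row ran over chrX:83998001-107447000 and the Btk row over chrX:126500001-140996000. Median scaled depth over 56 sites of chromosome X was 0.565 in M-MPAL, 1.09 to 1.24 in the other leukaemias and 1 in the empty control. The 8 sites in the Il2rg row had 0.326 in M-MPAL, 0.783 to 1.02 in the other leukaemias and 0.667 in the empty control. The single usable site in the Btk row did not set M-MPAL apart, with 0.522 in M-MPAL, 0.783 to 1.32 in the other leukaemias and 0.267 in the empty control. The labels give no sex, and 1 chromosome X in a male and the loss of 1 cannot be told apart here.

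M-MPAL also had 3 copies of Hras in a row of 96 kb with 8 genes (chr7:141179001-141275000), with no site to measure its depth. In T-MPAL, Sos1 had 3 copies in a row of 1.03 Mb (chr17:79740001-80766000), and gains covered 7.18 Mb of chromosome 17, against 0.195 Mb in the empty control. Over 86 sites of chromosome 17 the median scaled depth was 1.13 in T-MPAL, 0.913 to 1.04 in the other leukaemias and 0.933 in the empty control. The single usable site in the Sos1 row did not show the gain: it had 0.739 in T-MPAL, 0.957 in M-MPAL, 0.542 to 0.84 in the other leukaemias and 0.711 in the empty control.

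**Figure D5:**
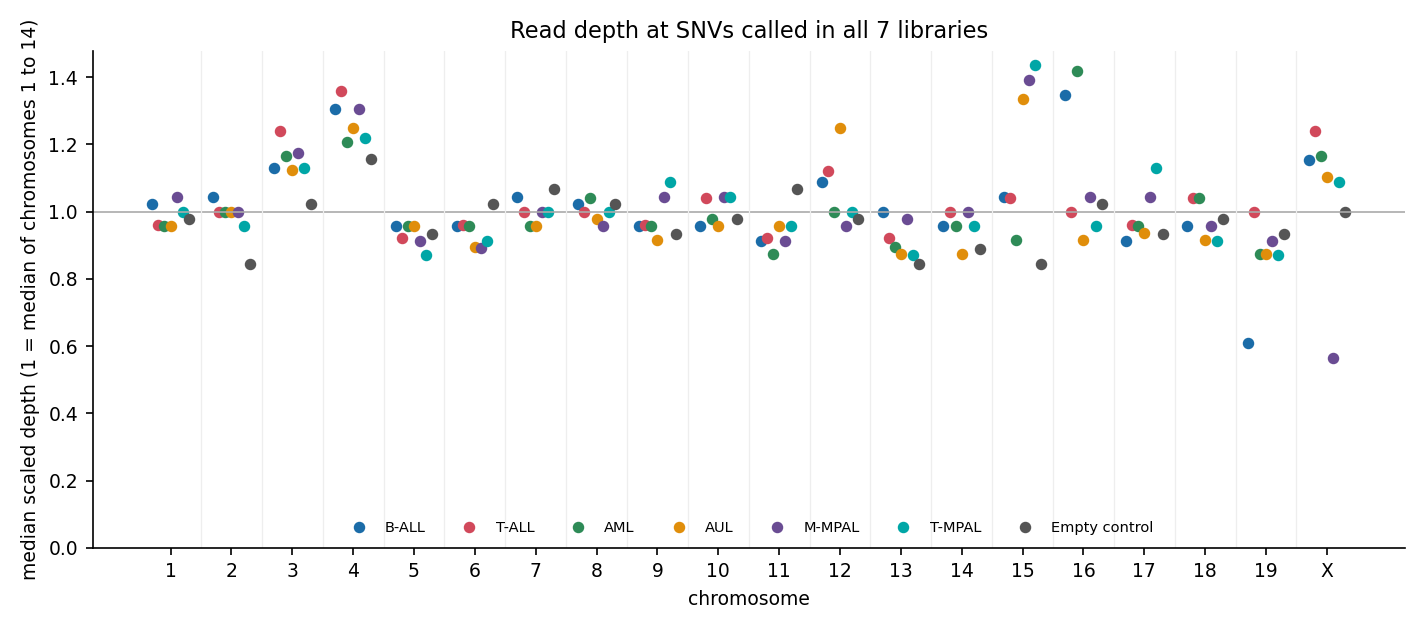
Median scaled read depth (1 is the median over chromosomes 1 to 14) by chromosome at SNVs called in all 7 libraries, 1 point per library. B-ALL and AML stand above the others on chromosome 16, AUL, M-MPAL and T-MPAL on chromosome 15, and B-ALL on chromosome 19 and M-MPAL on chromosome X stand below.

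In 83 other genes of the same pathways, listed by name, the pattern was alike. No leukaemia had a private protein-altering call in them. The empty control had 1, a loss of 3 bases in an exon of Il2, the T cell growth factor, in 4 of 22 reads (18.2%, 5.19 to 40.3) of a simple repeat. Over all named genes the share with such a call was 0.0478% to 0.114% in the leukaemias and 0.108% in the empty control. At these shares, nothing particular to the 83 genes can be read from the absence of calls. AUL had 8 private SNVs, against 1 to 6 in the other leukaemias and 3 in the empty control. AUL also had the highest share of all named genes with a private SNV, 9.28%. That share was 2.81% to 5.02% in the other leukaemias and 2.89% in the empty control. Outside repeats and by the stricter criteria, AUL held intronic SNVs in Plcg1, a phospholipase below antigen receptors (C160752671T, 15 of 27 reads), and in Il34, a ligand of Csf1r (G110788602A, 8 of 20). The empty control held G32391037A in the 3′ UTR of Rasal3, a RAS GTPase-activating protein (8 of 34). In a simple repeat, T-MPAL held T7195629G in the 3′ UTR of Lifr, a receptor chain of the interleukin 6 family (9 of 29).

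Copy number rows held 7 of the 18 other cytokine receptor chains, 4 of the 21 other RAS and MAPK genes, 1 of the 16 other antigen receptor signalling genes, 0 of the 12 ligands and 0 of the 16 other JAK-STAT genes. Gains held 6 of the 83 genes in B-ALL (4.61% of all named genes), 5 in AML (4.77%), 3 in M-MPAL (5.82%) and 3 in T-MPAL (6.37%). Losses held 2 in B-ALL (4.73%) and 1 in M-MPAL (6.12%). The B-ALL gains include a row of only 1 kb, called at 10 copies. Nothing particular to these genes can be read from such counts. On chromosome 16, the interferon receptor chains Ifnar1, Ifnar2 and Ifngr2 had 3 copies in B-ALL and AML, as Socs1 and Cblb did. On chromosome 15, Ghr, Lifr and Prlr, receptors of growth hormone, leukaemia inhibitory factor and prolactin, had 3 copies in M-MPAL and T-MPAL, as Il7r did. Araf, a RAF kinase on chromosome X, had 1 copy in M-MPAL.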

How the data were processed

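Whole-genome libraries of 350 bp fragments, read as 150 bp pairs at a planned depth of 30x, were aligned to mm10 with BWA, per the submitters' processing notes and the labels' protocols. SNVs and INDELs came from samtools, copy numbers from FREEC and annotation from ANNOVAR, per the file headers and names; their versions and filters: not given in the sources used here. Each deposited variant row has a Phred-scaled quality score (lowest 20), a read depth and a count of alternative reads, and the deposited copy number rows give whole copies in steps of 1 kb.

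Rows naming a member were taken after splitting the gene column. All 738 lay inside the RefSeq (GRCm38.p6) span of their gene. Private calls needed 10 reads on chromosomes 1 to 19 or X. Genes without a copy number row were read as 2 copies. Chromosome depths, chosen after seeing the data, used 1572 SNVs outside repeats, segmental duplications and copy number rows of the control, with a median scaled depth of 0.5 to 2. This last limit was added after the values without it (2173 SNVs) had been seen; both are reported. Sites in members were scaled by the median over all 21857 shared SNVs.

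Counts have exact Poisson and shares exact Clopper-Pearson 95% intervals. The members and lists were chosen with earlier results of these data known. Named genes were to be members with an exonic or splicing call, members with a private call outside repeats and segmental duplications (quality 100, 4 alternative reads), members in copy number rows, and pathway genes with private protein-altering calls or in copy number rows. Of the items this rule names, 1 is not reported here. Other members named, with strict INDELs in repeats, UTR calls or shared calls, were chosen after their values were seen, as were the stricter criteria in earlier work. Alternatives changed depth, quality, repeats, partner libraries and copy number rules. On simulated calls 465 of 465 planted private variants were recovered. All planted calls had the same depth, share and quality, and none was missed in a library, so this checked the counting code alone. It does not measure how often a real call was falsely private. The tools were matplotlib 3.10.9, scipy 1.17.1, pandas 2.3.3, numpy 2.4.6 and Python 3.11.15.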

Additional observations from a re-analysis of the deposited data

Results flagged for a closer look

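The AUL copy number table broke off in chromosome 2, so the copies of Il7r, Csf2rb and Il2rb in AUL are not known from it. The read depths at SNVs, a second readout of the same sequenced reads, gave a signal there. The median scaled depth of chromosome 15 over 59 sites was 1.33 in AUL and 0.844 in the empty control, or 1.58 times higher in AUL. AUL was above B-ALL, T-ALL, AML and the empty control alike at 39 of these sites. The empty control was the lowest library on this chromosome, which raises every ratio to it: B-ALL had 1.24, T-ALL 1.23 and AML 1.09. Outside chromosomes 15, 16, 17, 19 and X, the ratio of AUL to the empty control ran from 0.876 to 1.28. Without the limit on scaled depth, which was added after these values had been seen, the ratio was 1.99 for AUL, 1.51 for B-ALL, 1.495 for T-ALL and 1.48 for AML. AUL was thus above these 3 leukaemias both ways. The difference was not tested, and the number of sorted cells also differed between AUL and the empty control.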

How the results depend on the processing

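The 6 private member SNVs became 12 at 5 reads, 1 at 20 reads, 2 at a quality of 100, 3 without repeats, 2 under the stricter criteria and 10 calls with the partner library allowed (B-ALL with AML, M-MPAL with T-MPAL). The 180 private INDELs became 221 at 5 reads, 70 at 20 reads and 11 at a quality of 100. They became 3 without annotated repeats, 95 with no other INDEL within 10 bases and 10 under the stricter criteria. The 3 without annotated repeats, in Kit, Csf3r and Nf1, lay in tandem runs that the annotation does not mark. The 5 protein-altering calls became 0 under the stricter criteria. The cause of each move is the alternative's own construction, which admits or drops calls. The 17 pairs of a gene and a library in copy number rows stayed 17 with whole spans, rows of at least 50 kb and without rows found in every complete table. The depth ratio at Cblb was 1.69 when scaled by chromosomes 1 to 14. It was not run without repeats, since both Cblb sites lie in repeats. Over chromosomes, the depth ratio to the empty control without the limit on scaled depth, which was added after these values had been seen, was 1.99 for AUL, 1.96 for M-MPAL and 2.17 for T-MPAL on chromosome 15 (1.58, 1.65 and 1.70 with it) and 1.12 for T-MPAL on chromosome 17 (1.21 with it). The ratios of the other member gains and losses on chromosomes 16, 19 and X moved by less than the spread over other chromosomes. The cause was not tested. With RefSeq coding genes as features, chosen after seeing the data, 1.24% rather than 1.8% had an exonic SNV. Of the compared values, 100 were labelled as the same and 60 as moved. The label of the same was loose: it took in a change from 21 to 30 private INDELs in B-ALL at 5 reads. Some settings, such as calls inside the gene only, left every value unchanged. No paired analysis was possible because each group had 1 library. Depth limits what can be seen, and variants carried by few cells can be missed. The median was 15 to 17 reads at the member INDEL calls, and depth at member positions without a call is unknown.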
